A study of Homo sapiens with 12 samples.

Results

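Galectins are small lectins that bind beta-galactosides on glycoproteins and glycolipids. Prototype galectins carry a single carbohydrate recognition domain, LGALS3 is the chimera type whose domain is joined to a long N-terminal tail, and tandem-repeat galectins hold a pair of different domains in 1 chain. They are made in the cytosol, leave the cell without a signal peptide and cross-link surface glycans, and some also mark damaged vesicles from the cytosol side. Liver cancer cells are known to express several of them.

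The genes described here are LGALS1 and LGALS2 (prototype), LGALS3 (chimera), LGALS4, LGALS8 and LGALS9 (tandem repeat) and LGALS3BP, which is not a galectin but a secreted glycoprotein that galectins bind. They are the 7 rows of the deposited Huh7 table, out of 60666 listed genes, whose gene name is on that list. The list was built around LGALS2, which was chosen by its TPM in KD against NC, where it was among the genes with the highest rise. The group differences of all 7 genes are therefore a description without a test. Huh7 is an established human hepatocellular carcinoma line. The control cells (NC) and the knockdown cells (KD) each gave 3 libraries. Per the study's methods, stable knockdown came from a lentiviral shRNA against FAM111B with puromycin selection and controls received a control sequence. All cells grew in high-glucose DMEM with foetal bovine serum. The labels do not say whether the 3 libraries of a group came from separate cultures, so the spread between them, and every p-value built on it, may be technical. The number of clones behind each line is not given in the sources used here, and libraries of Hep3B cells were left out.

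Expression was deposited as TPM, a length-corrected share of the transcripts in a library. This unit does not carry the sequencing depth, which is unknown for every value. Tests covered the 14394 genes that reached 1 TPM in 3 or more libraries, among them 6 of the 7 described here (LGALS9 did not). FAM111B itself had 7.84, 8.29 and 7.99 TPM in NC and 0.96, 1.13 and 0.84 TPM in KD, a fold change of -2.20 on the log2 scale with a standard error of 0.113 (limma, adjusted p = 6.09e-06). The median tested gene had a log2 fold change of -0.36, so the values of most genes were lower in KD. All 10 hepatocyte markers on a fixed list were present, with summed levels of 32560 to 32830 TPM in NC and 50000 to 56870 TPM in KD. Most of that gain was AFP, with means of 7274 and 23060 TPM. At P under 0.05 (limma), 5 of the 10 markers were lower (ALB, FGB, TF, SERPINA1 and HNF4A) and 5 higher (AFP, APOA1, APOA2, TTR and GPC3). Of the fibroblast, leukocyte and endothelial markers, 3 of 6, 4 of 6 and 1 of 5 reached a mean of 1 TPM in a group. The summed fibroblast markers were 9.58 to 11.8 TPM in NC and 15.1 to 21.0 TPM in KD. The leukocyte sum, most of it LYZ, was 280.2 to 288 TPM in NC and 313 to 344 TPM in KD, and the endothelial sum was 1.26 to 2.29 TPM in NC and 2.15 to 3.49 TPM in KD. KDR was listed at 0 in every library. The leukocyte marker PTPRC had 0.13, 0.04 and 2.39 TPM in NC and at most 0.02 TPM in KD, and CD3E had a mean of 0 TPM in NC and 0.07 TPM in KD. The other leukocyte markers were LYZ, with means of 262 TPM in NC and 304 TPM in KD, and CD68, with 16.3 and 22.55 TPM. AIF1 had means of 0.177 and 1.44 TPM, and CD14 had 3.73 and 2.53 TPM. The part of these markers in the results was not tested, and in bulk RNA fewer cells of a type and less RNA per cell cannot be told apart.

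The sequences upstream of LGALS2, LGALS3 and LGALS3BP are shown because these genes represent the largest difference, the most abundant galectin and the glycoprotein ligand. Each run holds the 250 bases before the RefSeq start (GRCh38.p14), 5′ to 3′ on the strand of the gene, and capitals mark the motifs that were found. RefSeq gave such windows for 6 of the 7 genes, all but LGALS1, and gave 3 for LGALS8. The LGALS2 and LGALS3 windows lie inside the GENCODE v29 spans of these genes given below, and the LGALS3BP window lies partly inside its span.
LGALS2, chr22:37580088-37580337, minus strand: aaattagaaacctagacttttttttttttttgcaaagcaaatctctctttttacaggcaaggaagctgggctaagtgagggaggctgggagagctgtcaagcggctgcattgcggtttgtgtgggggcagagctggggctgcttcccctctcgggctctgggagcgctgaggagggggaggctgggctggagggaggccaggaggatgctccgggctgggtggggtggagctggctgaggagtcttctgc
LGALS3, chr14:55129002-55129251, plus strand: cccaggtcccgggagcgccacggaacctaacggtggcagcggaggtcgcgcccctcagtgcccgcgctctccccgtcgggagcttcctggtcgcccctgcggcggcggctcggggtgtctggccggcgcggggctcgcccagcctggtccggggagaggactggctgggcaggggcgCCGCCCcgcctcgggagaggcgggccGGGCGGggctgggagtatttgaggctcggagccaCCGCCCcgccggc
LGALS3BP, chr17:78979924-78980173, minus strand: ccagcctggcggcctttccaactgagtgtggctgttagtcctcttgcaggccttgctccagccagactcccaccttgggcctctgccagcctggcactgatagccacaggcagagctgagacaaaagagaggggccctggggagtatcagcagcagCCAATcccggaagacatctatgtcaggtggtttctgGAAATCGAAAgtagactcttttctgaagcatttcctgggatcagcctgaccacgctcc

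The motifs were searched on both strands by their letters, as the TATA box TATAAA, the GC box GGGCGG, the CCAAT box CCAAT, the AP-1 site TGACTCA and an HNF4 site CAAAGTCCA. The interferon-stimulated response element (a pair of GAAA blocks with any 2 bases between them) and the HNF1 site were searched in the same way. None of these letters occurred in the LGALS2 window, which had 58.0% G and C, the same as the median of 58.0% over all 35116 windows. The LGALS3 window, with 78.8% G and C, held the GC box 3 times, at -73, -47 and -13 from the start (first base of each match), a motif found in 42.6% of all windows. The LGALS3BP window held GAAATCGAAA at -58, a match to the interferon element found in 3.02% of windows, and CCAAT at -94, found in 32.0%. In LGALS8, 1 window had 2 matches to the TATA letters on the other strand, at -233 and -59 (letters found in 10.7% of windows), another had the GC box at -12 and the third had no match. The windows of LGALS4 and LGALS9 had no match. AP-1, HNF4 and HNF1 letters, present in 4.2%, 0.325% and 0.0057% of all windows, were in no member's window.

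LGALS2, a prototype galectin best known from the epithelium of the digestive tract, showed the widest gap between the groups. It lies on chromosome 22 from 37570246 to 37582616 on the minus strand (ENSG00000100079, GENCODE v29, GRCh38). Its level was 9.38, 9.67 and 9.67 TPM in NC replicates 1 to 3 and 98.6, 97.0 and 119 TPM in KD replicates 1 to 3. Every KD library lay above every NC library, and KD replicate 3 was the highest. The means of 9.57 ± 0.167 TPM (SD, n = 3) and 105 ± 12.2 TPM (SD, n = 3) stood in a ratio of 10.9, and the difference was 3.32 on the log2(TPM + 1) scale. In NC cells 44.0% of the tested genes had a lower mean TPM than LGALS2, and in KD cells 91.4% did.

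LGALS1 (ENSG00000100097) is the prototype galectin that is widely secreted and binds integrins and matrix glycoproteins. It lies on chromosome 22 from 37675608 to 37679806, 92991 bases from LGALS2. It had 5.38, 8.27 and 7.42 TPM in NC and 12.6, 13.4 and 13.5 TPM in KD. The groups did not overlap, and NC replicate 1 was the lowest library. The mean was 7.02 ± 1.49 TPM in NC and 13.1 ± 0.515 TPM in KD (SD, n = 3 each), a ratio of 1.87 and a log2 difference of 0.83.

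LGALS3 (ENSG00000131981, chromosome 14 from 55124110 to 55145413), which forms oligomers through its tail and works at the cell surface, in the cytosol and in the nucleus, was the most abundant of the 7 genes in all 6 libraries. It had 89.0, 86.5 and 88.4 TPM in NC and 129.9, 132 and 135 TPM in KD. All 3 KD libraries lay above the NC libraries by more than the spread within either group. The means were 88.0 ± 1.28 TPM and 132 ± 2.33 TPM (SD, n = 3 each), a ratio of 1.50 and a log2 difference of 0.58.

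LGALS8 (ENSG00000116977, chromosome 1 from 236518000 to 236552981), a tandem-repeat galectin that binds glycans exposed on damaged vesicles and recruits the autophagy receptor CALCOCO2, went the other way. It had 46.4, 45.5 and 46.3 TPM in NC and 17.2, 14.2 and 14.4 TPM in KD. Every KD library was below every NC library. The means of 46.1 ± 0.473 TPM and 15.3 ± 1.64 TPM (SD, n = 3 each) gave an NC level 3.02 times the KD level and a log2 difference of -1.54. HEATR1, LGALS8-AS1 and the antisense genes AL359921.1 and AL359921.2 overlap LGALS8 on the other strand, the last pair without levels given here. HEATR1 had 16.5 ± 1.37 TPM in NC and 3.0 ± 0.131 TPM in KD (SD, n = 3 each) and LGALS8-AS1 1.40 ± 0.274 and 0.763 ± 0.222 TPM, and both were looked up after the values of LGALS8 were seen. The labels describe a stranded library, but whether the counting used the strand is not given in the sources used here, so the shared stretches leave the LGALS8 value uncertain.

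The remaining tandem-repeat galectins were scarce. LGALS4 (ENSG00000171747, chromosome 19), a galectin of intestinal epithelium that binds sulphated glycolipids, had 0.75, 1.11 and 1.96 TPM in NC and 1.29, 0.91 and 1.15 TPM in KD. These ranges overlapped, and the log2 difference of -0.07 was smaller than the SD within NC (0.38). Its sign turned to 0.17 and 0.14 after median-of-ratios scaling and quantile normalization, and to 0.14 without NC replicate 3. LGALS9 (ENSG00000168961, chromosome 17), a ligand of the T-cell receptor HAVCR2, had 0.22, 0 and 0 TPM in NC and 0.21, 0.22 and 0.44 TPM in KD. The ranges overlapped at a level where no direction can be read, and reads of LGALS9 may also be split with its near-identical copies LGALS9B and LGALS9C.

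LGALS3BP (ENSG00000108679, chromosome 17 from 78971238 to 78980109), the secreted scavenger-receptor protein bound by LGALS1 and LGALS3, was lower in KD. It had 8.59, 8.51 and 9.56 TPM in NC and 2.37, 4.66 and 4.64 TPM in KD. The groups did not overlap, and KD replicate 1 lay well below the other KD libraries. The means were 8.89 ± 0.585 TPM and 3.89 ± 1.32 TPM (SD, n = 3 each) with a log2 difference of -1.05, which was -0.81 without KD replicate 1.

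**Figure D1:**
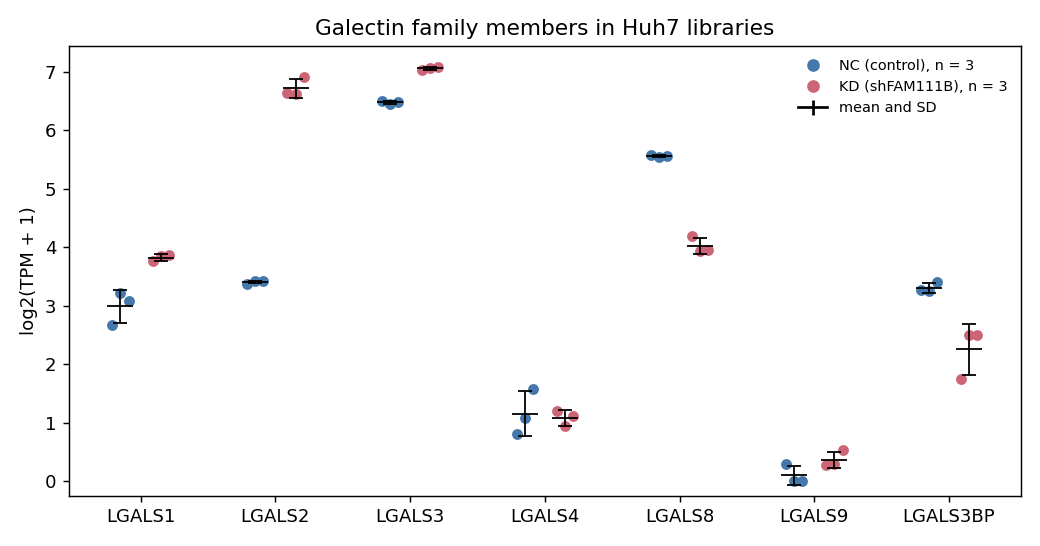
Level of each of the 7 genes as log2(TPM + 1) in the 3 NC (blue) and 3 KD (red) libraries, with the group mean and SD as black bars. KD libraries lie above NC libraries for LGALS1, LGALS2 and LGALS3 and below them for LGALS8 and LGALS3BP, and the groups overlap for LGALS4 and LGALS9.

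At 2-fold or more on the log2(TPM + 1) scale with groups that did not overlap, 1 of the 6 tested members was higher in KD (LGALS2) and 2 were lower (LGALS8 and LGALS3BP). Among all tested genes 6.67% were higher and 23.6% were lower by the same rule, and nothing is read from the members' counts because these values chose them. The median log2 difference of the 6 members was 0.26.

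The order of the levels changed with the group. In NC it was LGALS3, LGALS8, LGALS2, LGALS3BP, LGALS1, LGALS4 and LGALS9 from high to low in mean TPM. The ranges of LGALS2 and LGALS3BP overlapped there, so that pair did not differ beyond its spread, and the ranges of the other neighbours were apart. In KD the order was LGALS3, LGALS2, LGALS8, LGALS1, LGALS3BP, LGALS4 and LGALS9, with the ranges of all neighbours apart. LGALS2 went from the 3rd place to the 2nd, and LGALS1 passed LGALS3BP.

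Shares of the summed TPM of the 7 genes do not depend on a scaling factor applied to a whole library. They do carry the trend with transcript length described below, which was 0.82 for LGALS2 and -0.79 for LGALS8 on the log2 scale. The sum was 161 ± 2.12 TPM in NC and 271 ± 14.5 TPM in KD (SD, n = 3 each). LGALS2 made up 5.87%, 6.06% and 5.92% of it in NC and 37.6%, 36.9% and 41.3% in KD, a gain of 32.7 percentage points in the means. LGALS3 held 54.7% ± 0.882 in NC and 48.9% ± 1.88 in KD, so its share was lower although its TPM was higher. LGALS8 held 28.6% ± 0.379 and 5.66% ± 0.794, and LGALS3BP 5.52% ± 0.289 and 1.43% ± 0.463. The LGALS1 share overlapped between the groups, at 3.37% to 5.18% in NC and 4.70% to 5.09% in KD. The prototype pair together went from 10.3% ± 1.01 to 43.5% ± 2.21 of the sum and the tandem-repeat genes from 29.5% ± 0.231 to 6.18% ± 0.827 (SD, n = 3 each).

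**Figure D2:**
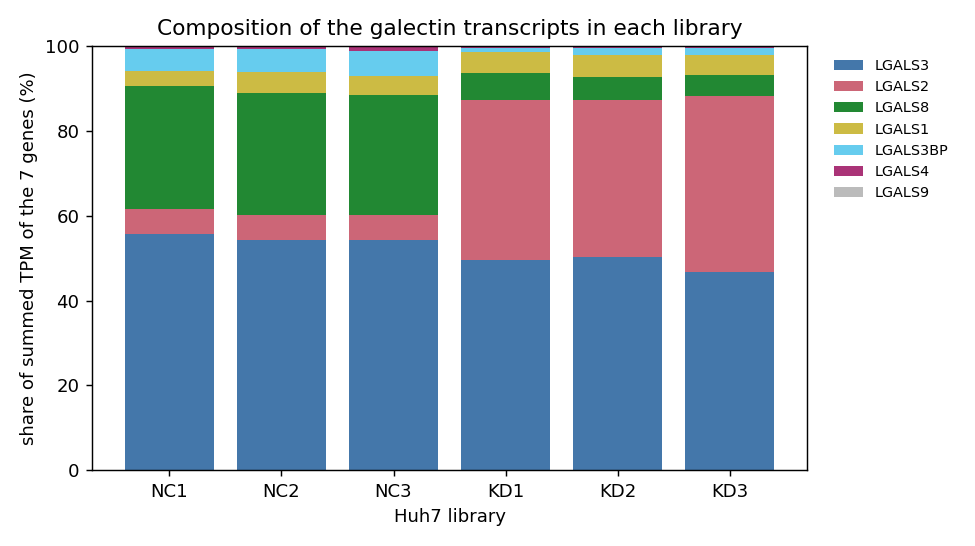
Share of each gene in the summed TPM of the 7 genes (percent, stacked bars) in each Huh7 library. The LGALS2 band widens from about 5.87% to 6.06% in the NC libraries to 36.9% to 41.3% in the KD libraries, while the LGALS8 band narrows from 28.6% to 5.66% in the group means.

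Ratios between genes within a library were compared as well, and they carry the same length trend. LGALS3 was 9.48, 8.95 and 9.15 times LGALS2 in NC and 1.32, 1.36 and 1.13 times LGALS2 in KD. The ratio of LGALS3 to LGALS8 was 1.91 ± 0.00831 in NC and 8.73 ± 1.01 in KD, and that of LGALS2 to LGALS1 was 1.41 ± 0.300 and 7.97 ± 0.779 (SD, n = 3 each).

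Fold changes in these libraries fell with transcript length, and the members differ in length. The longest annotated transcript has 591 nt for LGALS2, 637 nt for LGALS1, 1734 nt for LGALS3, 2405 nt for LGALS3BP and 6420 nt for LGALS8. A loess fit over all tested genes put the trend at 0.82 for the length and level of LGALS2, 0.71 for LGALS1, 0.15 for LGALS3, -0.22 for LGALS3BP and -0.79 for LGALS8. The difference beyond the trend was 2.50 for LGALS2 and 0.43 for LGALS3, -0.83 for LGALS3BP and -0.75 for LGALS8. For LGALS1 it was 0.12, so most of its log2 difference of 0.83 lay within what genes of its length and level showed. All of these 5 genes kept their direction under the other scalings, with log2 differences of 3.22 to 3.75 for LGALS2, 0.74 to 1.33 for LGALS1, 0.46 to 1.03 for LGALS3, -1.20 to -0.56 for LGALS3BP and -1.67 to -1.10 for LGALS8.

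**Figure D3:**
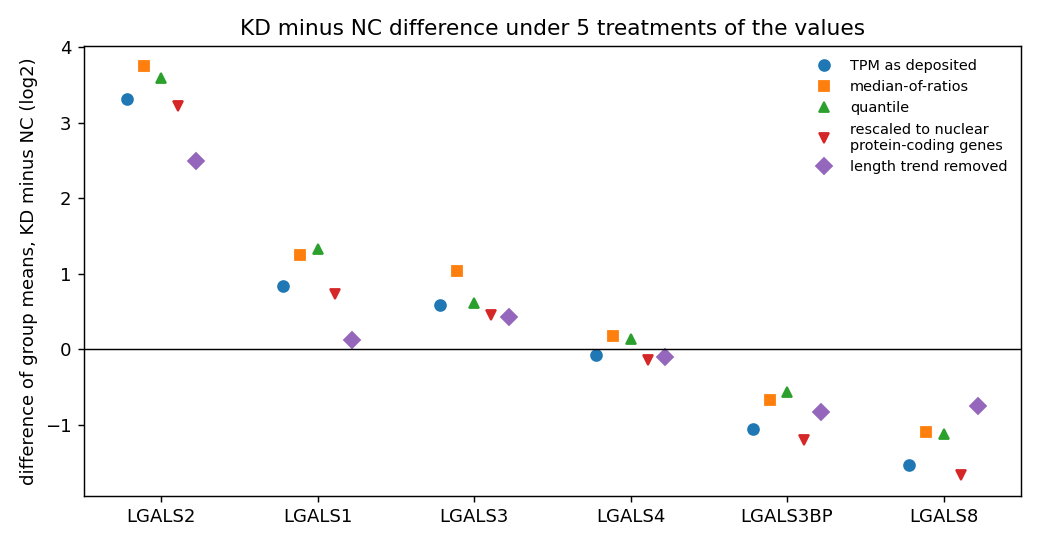
Difference of the group means (KD minus NC, log2) of the 6 tested members with the TPM as deposited, under 3 other scalings and after removal of the length and level trend. LGALS2 stays between 2.50 and 3.75 and LGALS8 between -1.67 and -0.75, LGALS1 drops to 0.12 with the trend removed, and LGALS4 changes sign.

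The protein-coding genes (mean of at least 10 TPM, 7049 searched) whose profile over the 6 libraries lay nearest to that of LGALS2 were S100A6, SAA1, TAGLN, APOA4 and RAMP1. Nearness was the Euclidean distance between log2(TPM + 1) values centred on each gene's mean, and it ran from 0.378 for S100A6 to 0.500 for RAMP1. S100A6 is a calcium-binding protein, and it had 25.3 ± 3.25 TPM in NC and 309 ± 33.3 TPM in KD. TAGLN, an actin-binding protein, had 17.6 ± 1.51 TPM and 147 ± 11.6 TPM. APOA4, an apolipoprotein of intestine and liver, had 2.60 ± 0.464 TPM and 28.4 ± 3.99 TPM (SD, n = 3 each). The choice of these genes by likeness fixes that they share the pattern of LGALS2, and APOA4 and RAMP1 reached the mean of 10 TPM only through the KD libraries.

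**Figure D4:**
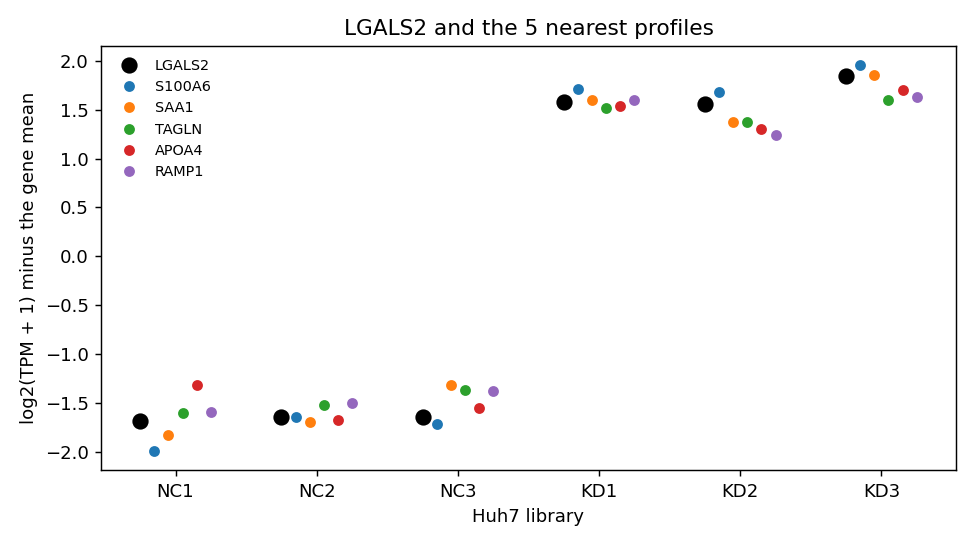
log2(TPM + 1) minus the gene's mean over the 6 libraries for LGALS2 (black) and the 5 genes with the nearest profiles. All 6 genes lie below their mean in the 3 NC libraries and above it in the 3 KD libraries, as the choice by likeness fixes.

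Of 10 further galectin genes on a fixed list, 3 reached a mean of 1 TPM in a group and were tested. LGALSL, a galectin-like protein, had 10.2 ± 0.453 TPM in NC and 9.26 ± 2.12 TPM in KD, which differed by -0.14 on the log2 scale (limma, standard error 0.158, adjusted p = 0.444). LGALS14, a galectin known from placenta, had 2.81 ± 0.415 and 2.43 ± 0.831 TPM, which differed by -0.18 (limma, standard error 0.207, adjusted p = 0.47). CLC, the Charcot-Leyden crystal protein of eosinophils, had 0, 0 and 8.62 TPM in NC and 9.32, 2.70 and 4.69 TPM in KD. Its NC libraries were split and its adjusted p was 0.172 (limma). None of these genes passed the test. LGALS7, LGALS9B, LGALS13 and LGALS16 were listed at 0 TPM in all 6 libraries, LGALS9C and LGALS12 did not exceed 0.07 TPM in a library, and LGALS7B was listed at 0 in NC and at 1.05, 0.51 and 0 TPM in KD.

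The comparison was then extended to genes that build galectin ligands, carry them or act with galectins inside the cell. A gene was called at a fold change of at least 2 on the log2(TPM + 1) scale with a limma P under 0.05, a rule that called 6.82% of all tested genes higher and 23.7% lower. At P under 0.05 without the fold limit, 22.1% of all tested genes were higher and 52.0% lower, and the counts of each list stand against these shares. With median-of-ratios scaling 53.0% of the calls over all genes were higher, against 22.4% with the TPM as deposited.

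Enzymes and transporters of N- and O-glycan synthesis set how much galactose a glycan offers to galectins, and their share of lower calls was close to that of all tested genes. Of 31 tested genes 9 (29%) were called lower and 0 higher, with 20 lower and 4 higher at P under 0.05 without the fold limit, and the median log2 fold change was -0.61. B4GALT1, which adds the galactose of N-acetyllactosamine, fell from 97.5, 94.7 and 93.7 TPM in NC to 22.6, 23.7 and 24.1 TPM in KD, a fold change of -1.98 on the log2 scale with a standard error of 0.052 (limma, adjusted p = 1.62e-06). ST6GAL1, whose alpha-2,6 sialic acid caps galactose against LGALS1, fell from a mean of 107 TPM (SD 5.34) to a mean of 27.4 TPM (SD 1.63), a fold change of -1.93 on the log2 scale with a standard error of 0.0655 (limma, adjusted p = 2.55e-06). The Golgi mannosidase MAN2A2 and the galactosyltransferase B4GALT5 fell by 1.91 and 1.60 on the log2 scale. With the length trend removed, the split of calls was 4 higher and 3 lower and the median was -0.01. Over all 14263 genes of that fit, 1268 were called higher and 1453 lower.

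Glycoproteins known as galectin ligands or counter-receptors had the largest share of lower calls among the 4 lists. Of 24 tested genes 10 (41.7%) were called lower and 0 higher, with 17 lower and 5 higher at P under 0.05 alone, and the median was -0.68. The integrin chain ITGA6, a laminin receptor subunit, fell from 60.5, 55.5 and 50.7 TPM to 8.06, 8.13 and 7.59 TPM, a fold change of -2.66 on the log2 scale with a standard error of 0.0823 (limma, adjusted p = 2.22e-06). SLC2A2, the liver glucose transporter whose glycans hold it at the surface through galectin binding, fell from a mean of 17.2 TPM (SD 2.48) to a mean of 1.98 TPM (SD 0.142), a log2 fold change of -2.60. ITGAV and the adhesion molecule ALCAM fell by 2.04 and 1.73 on the log2 scale. With the length trend removed, 2 were called higher and 5 lower (1268 and 1453 of all 14263 genes) and the median was -0.000951.

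Proteins that work with galectins at damaged endosomes and lysosomes had a share of lower calls close to the 23.7% of all tested genes. Of 24 tested genes 5 (20.8%) were called lower and 0 higher, with 14 lower and 6 higher at P under 0.05 alone, and the median was -0.55. PRKAA1, the catalytic AMPK chain, fell from 85.3 ± 12.3 TPM to 15.3 ± 0.675 TPM, a fold change of -2.40 on the log2 scale with a standard error of 0.104 (limma, adjusted p = 3.78e-06). PDCD6IP, also called ALIX, which links LGALS3 to membrane repair, fell by 2.23, the autophagy receptor TAX1BP1 by 1.23 and the deubiquitinase USP9X by 1.33 on the log2 scale. USP9X did not pass P under 0.05 once the length trend was removed (log2 fold change -0.26). With the trend removed, 2 genes were called higher and 2 lower (1268 and 1453 of all 14263 genes). Median-of-ratios scaling gave 4 higher and 2 lower in this list, and 2030 higher and 1798 lower among all 14394 genes.

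Interferon-response genes were included because LGALS9 and LGALS3BP are known to be induced by interferon. Of 14 tested genes 2 (14.3%) were called higher and 3 (21.4%) lower, with 4 higher and 5 lower at P under 0.05 alone, and the median was -0.16. IFI6 rose from 5.08, 6.71 and 5.02 TPM to 27.7, 22.3 and 29.7 TPM, a fold change of 2.06 on the log2 scale with a standard error of 0.145 (limma, adjusted p = 1.90e-05). ISG15, a ubiquitin-like protein, rose by 1.07 on the log2 scale. IRF1 and the RNA sensor IFIH1 fell by 1.54 and 1.17, with NC replicate 3 of IRF1 at 54.6 TPM against 25.3 and 29.9 TPM in the other NC libraries. The list thus held calls in both directions. With the length trend removed 1 was called higher and 0 lower (1268 and 1453 of all 14263 genes). At P under 0.05 alone (limma), 4 were higher and 3 lower after that removal. No count over all genes is given for that limit after the removal, so nothing is read from this split. Median-of-ratios scaling gave 3 higher and 1 lower (2030 and 1798 of all 14394 genes).

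**Figure D5:**
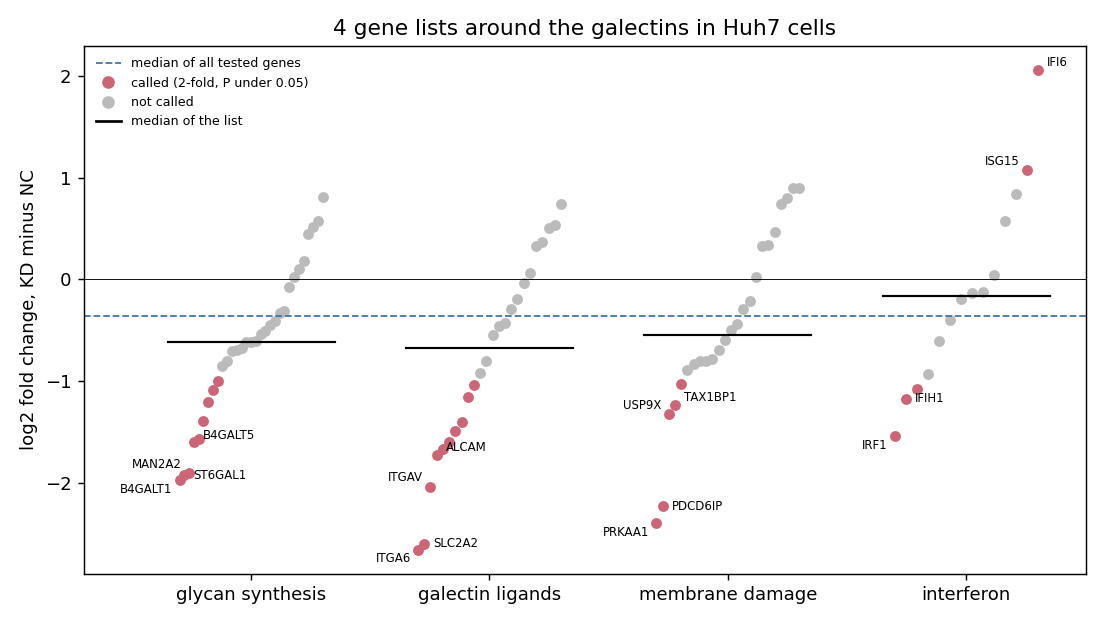
log2 fold change (KD minus NC) of each tested gene of the 4 lists, with called genes in red, other genes in grey, the list median as a black line and the median of all tested genes (-0.36) as a dashed line. The calls in the glycan synthesis, ligand and membrane damage lists are all on the lower side with the TPM as deposited, and the interferon list has 2 higher and 3 lower calls. After median-of-ratios scaling the membrane damage list has 4 higher and 2 lower calls, and all 14394 genes have 2030 higher and 1798 lower.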

How the data were processed

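The authors deposited 1 table for Huh7 cells that gives TPM by library and by group mean. It also holds the comparison the authors made, as a fold ratio, a log2 fold change and a p-value. Only the TPM of the 6 libraries were used. The submitters' processing notes name RSEM, DESeq2 and hg38, with no version or role. The aligner is not given in the sources used here. The paper gives a TruSeq kit and the labels a stranded mRNA kit with poly(A) selection.

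Genes that reached 1 TPM in 3 or more libraries (14394 of 60666) were analysed as log2(TPM + 1), a scale that understates changes of low genes, in limma 3.58.1 under R 4.3.3 (lmFit, eBayes with trend, no covariate, Benjamini-Hochberg adjustment over all tested genes). The planned count test was replaced by limma because the table holds TPM. Positions and transcript lengths came from GENCODE v29, which holds 96.3% of the listed identifiers, and promoters from RefSeq. The fit and the loess removal (span 0.75) were tested on simulated data.

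The members and lists were chosen with earlier results of these data known. Named genes are the 7 members, FAM111B, further galectins with a mean of 1 TPM in a group, up to 4 called genes per direction of each list by size of change, and the 5 profiles nearest to LGALS2. Some items the rule would name are not reported here. Other genes were named after their values were seen. Alternatives were no filter, a pseudocount of 0.1, a replicate block, each library left out, median-of-ratios scaling, quantile normalization, TPM rescaled to nuclear protein-coding genes, the length trend removed, and adjusted p under 0.05 for calls. No libraries were duplicates (at most 0.889% identical TPM in a pair).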

Additional observations from a re-analysis of the deposited data

How the results depend on the processing

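Members were counted at 2-fold with groups not overlapping, and list genes and all genes at 2-fold with P under 0.05 (limma). These rules differ, so the members' counts are not read against the others. Median-of-ratios scaling gave 3 members higher (LGALS1, LGALS2 and LGALS3) and 1 lower. It called 2 glycan synthesis genes higher and 5 lower, and 1 ligand gene higher and 7 lower. Membrane damage genes split into 4 higher and 2 lower, interferon genes into 3 and 1, and all genes into 2030 and 1798. Quantile normalization gave 2 members higher and 1 lower, 2 glycan synthesis genes higher and 5 lower, and 1 ligand gene higher and 8 lower. There, membrane damage genes split into 1 higher and 3 lower, interferon genes into 2 and 1, and all genes into 1694 and 1849. With the length trend removed, 0 members were 2-fold lower, 4 glycan synthesis genes were higher and 3 lower, and 2 ligand genes higher and 5 lower. The same removal gave 2 membrane damage genes higher and 2 lower, 1 interferon gene higher and 0 lower, and 1268 of all genes higher and 1453 lower. A pseudocount of 0.1 called 1 glycan synthesis gene higher and 10 lower, and 2 membrane damage genes higher and 6 lower. Over all genes it called 1267 higher and 4264 lower. Rescaling to nuclear protein-coding genes called 1 interferon gene higher and 4 lower, and 506 of all genes higher and 3833 lower. The cause of these moves was not tested; the median tested gene was at -0.36 on the log2 scale as deposited and 0.03 after median-of-ratios scaling. With a library left out, 1 to 2 members were lower (1 without KD replicate 1, where LGALS3BP missed the fold). Among membrane damage genes 0 to 1 were called higher (TRIM16, without NC replicate 1) and 4 to 6 lower. Calls over all genes then ran from 918 to 1087 higher and from 3362 to 3554 lower. The LGALS2 share differed between the groups by 31.3 to 33.5 percentage points. The counts over all genes came to 996 higher and 3410 lower with the replicate block, which changed no count of members or of list genes called at 2-fold (at P under 0.05 alone, 15 instead of 14 membrane damage genes were lower). Deviations of same-numbered libraries correlated at 0.0349 to 0.0908, below the limit for pairing, and KD replicate 2 correlated best with NC replicate 1, so the numbers do not pair the libraries. None of the named list genes reversed direction under any alternative. TPM hold no depth, so counting error cannot be given for genes such as LGALS4 and LGALS9.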

Other observations

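LGALS2 and LGALS1 lie 92991 bases apart on chromosome 22, and 3 of the 4 protein-coding genes of GENCODE v29 that lie between them are given here, looked up after the members' values were seen. GGA1, an adaptor of Golgi vesicle traffic, fell from 43.6 ± 3.54 TPM in NC to 26.5 ± 0.581 TPM in KD (SD, n = 3 each), a fold change of -0.69 on the log2 scale with a standard error of 0.0729 (limma, adjusted p = 0.000123). PDXP, the pyridoxal phosphatase, rose from 20.8 ± 1.71 TPM to 28.6 ± 0.736 TPM, a fold change of 0.44 on the log2 scale with a standard error of 0.0753 (limma, adjusted p = 0.00144). Z83844.2, which overlaps PDXP, had 5.16, 5.21 and 2.20 TPM in NC and 1.05, 0.80 and 8.82 TPM in KD and is uncertain. None of these 3 genes reached a 2-fold change. Beyond the trend of genes of their length and level, GGA1 stood at -0.30 and PDXP at 0.54 on the log2 scale, where the median tested gene was at -0.06 after the same removal.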
